A study of Homo sapiens with 6 samples.

Results

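The genes described here are the receptor tyrosine kinases outside the EPH family, chosen by their symbols in the deposited expression table: 44 genes of the 31814 in that table. They were measured by RNA sequencing in H69, a human cell line that the labels describe no further and whose name is used for more than one human line. Cells grown in RPMI medium with serum received 1 µM TSA (trichostatin A, an inhibitor of histone deacetylases) or the vehicle DMSO for 24 h, and 3 libraries were made from each: 3 TSA libraries and 3 vehicle libraries, with no genetic change named in either group. The treatment label of the TSA libraries reads "HSA treated", whereas the design and protocol texts name TSA, and the group is called TSA here. Nothing in the labels ties the libraries of either group to separate cultures, and the p-values therefore measure only how far these libraries differ, possibly for technical reasons.

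Receptor tyrosine kinases sit in the cell membrane, bind a growth factor outside the cell, pair up and phosphorylate each other on tyrosines inside it. Adaptor proteins such as GRB2 and SHC1 dock on these phosphotyrosines and pass the signal to the RAS-MAPK and PI3K-AKT relays, while phosphatases, ubiquitin ligases and RAS-inactivating proteins switch it off. Several of these receptors, among them KIT, MET, FGFR1, RET and ALK, are known for their part in cancers, and a few members (ERBB3, PTK7 and RYK) are known as receptors with weak or no kinase activity of their own.

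Values are TPM, a transcript level scaled for gene length and library total. Each library gave at least 22533307 to 26148651 reads assigned to genes, lower bounds recovered from the steps of its TPM values. Mitochondrial genes took 16.9, 7.65 and 10.4% of the TPM in TSA libraries 1 to 3, against 12.3, 4.97 and 10.1% in vehicle libraries 1 to 3. All 6 neuroendocrine markers examined were high in vehicle cells, at 123 TPM or more in every library. Of the 6 markers 3 were higher and 2 lower in TSA cells, and their sum ran from 858 to 980 TPM in TSA libraries and from 1422 to 1687 TPM in vehicle libraries. Another 6 bile duct and other epithelial markers were examined too. EPCAM had 177 to 243 TPM in TSA cells and 564 to 672 TPM in vehicle cells. CDH1 went the other way, with 65.4 to 66.6 TPM in TSA cells and 16.9 to 19.6 TPM in vehicle cells. Of the 6 epithelial markers 3 were higher (CDH1, KRT8 and KRT18) and 3 lower (EPCAM, KRT7 and KRT19). The sum of the 6 ran from 676 to 907 TPM in TSA libraries and from 1006 to 1302 TPM in vehicle libraries. The part of these changes in the receptor results was not tested. In such bulk RNA, fewer cells of a type and less RNA per cell cannot be told apart.

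The TSA libraries held a different set of receptor transcripts from the vehicle libraries, and the changes went both ways. On the log2(TPM + 1) scale, FGFR4, LMTK3 and MERTK showed the largest increases, and MET, DDR1, AATK, TYRO3 and KIT the largest decreases. Genes were tested where at least 3 of the 6 libraries had 1 TPM or more, by limma on log2(TPM + 1) with Benjamini-Hochberg adjustment over all 17596 such genes, a scale that understates the changes of low genes. The order depends on that scale. In the authors' deposited table the log2 fold changes of INSR (6.62) and CSF1R (6.60) exceed that of FGFR4 (5.27). So do those of STYK1 (6.925) and PDGFRB (6.06), which were under the filter here. In that table AATK (-2.97) and TYRO3 (-1.98) lie below MET (-1.81) and DDR1 (-1.80). Of the 44 receptor genes 27 were tested, and at an adjusted p under 0.05 there were 15 higher in TSA cells, beside 28.0% of all tested genes, and 7 lower, beside 34.2%. The remaining 5 tested genes (ERBB2, ERBB4, FGFR1, IGF1R and ROR1) did not pass. The median log2 fold change was 0.61 over the 27 tested receptor genes and -0.10 over all tested genes. For all tested genes it shifts to 0.01 when libraries are scaled by median-of-ratios or by quantiles, and under both scalings all 15 increases and all 7 decreases passed the test. The tested receptor genes are long, with a median of 5270 nt for the longest annotated transcript, against 2969 nt over all tested genes.

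The filter itself shaped the count of higher genes. Of the 27 tested receptor genes, 19 reached the filter level in both groups, and of these 8 were higher, 6 lower and 5 not called. The shares over all genes that reached it in both groups were not computed. The shares over all tested genes include genes that passed through TSA or vehicle libraries alone. Whether the counts among the 19 differ from those of other such genes was therefore not tested. A further 7 tested receptor genes, among them INSR, CSF1R, MERTK, RET, LTK and LMTK3, passed through their TSA libraries alone. AATK passed through its vehicle libraries alone, so these 8 could hardly fail to differ. The same limit holds for partner genes described with their receptors, with TGFA, NRP2, PLCG2, PIK3CD and COL1A1 passing through TSA libraries alone and CSF1, FAM150B, VEGFC, ANGPT2, GFRA1 and KL through vehicle libraries alone. Without regard to the filter, the 3 TSA values lay above all 3 vehicle values for 24 of the 44 genes, beside 23.4% of all genes in the table, and below them for 8, beside 24.0%. Among the 9 tested receptor genes with a mean of 10 TPM or more over the 6 libraries, 3 were higher and 5 lower, beside 28.1% and 38.1% of the genes at that level. Among the 18 under that mean, 12 were higher and 2 lower, beside 27.9% and 28.6%.

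**Figure D1:**
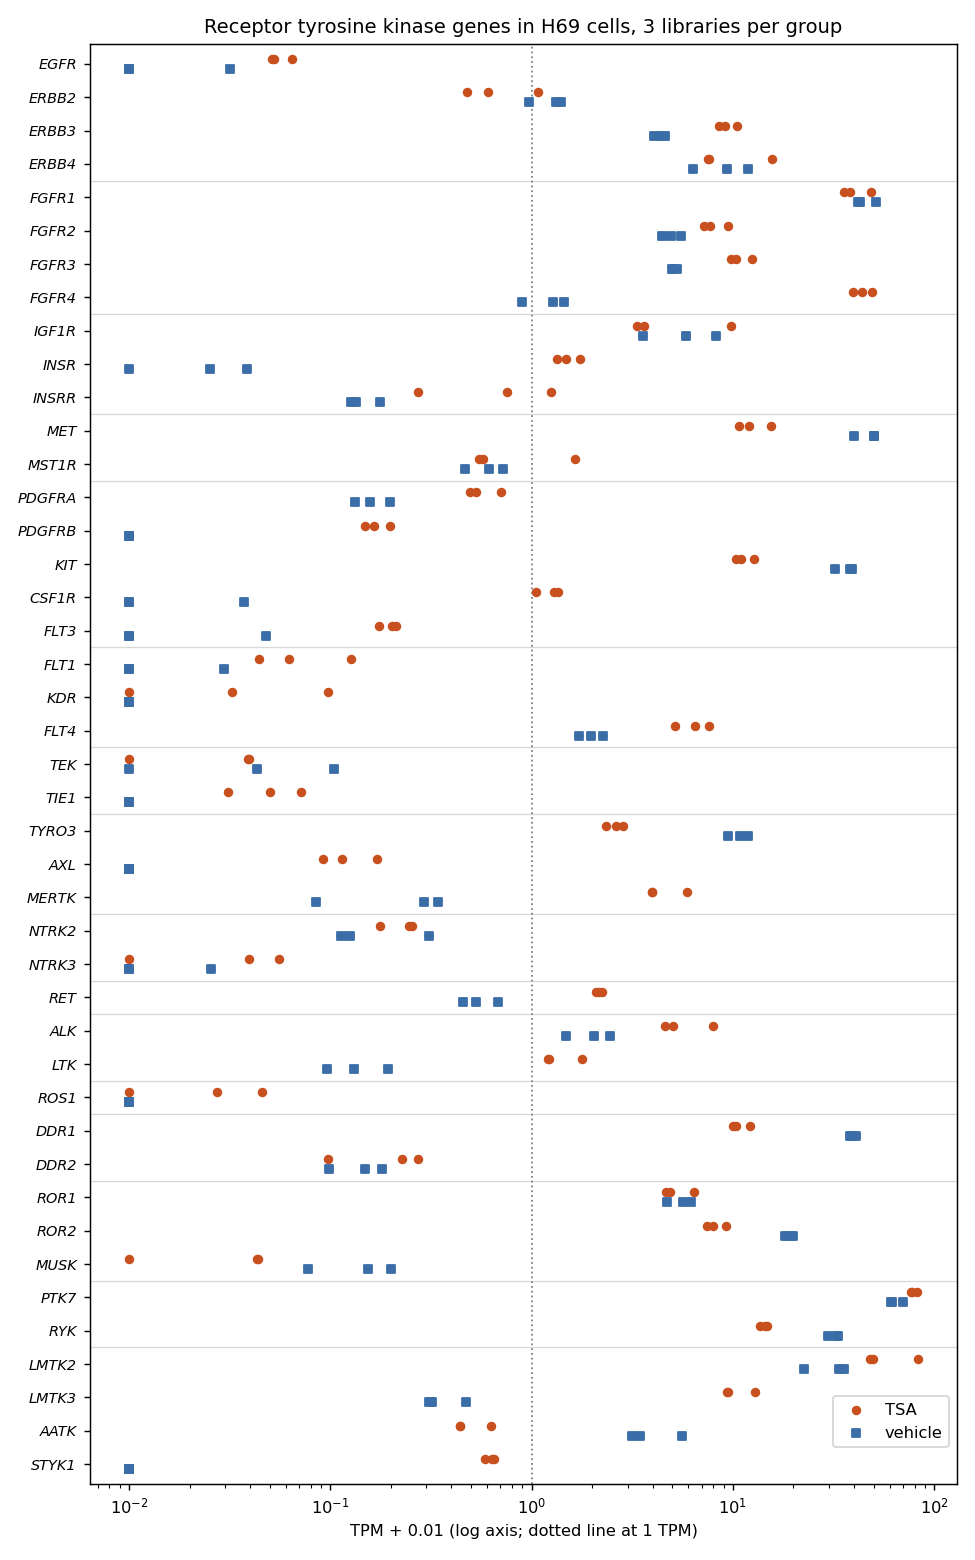
TPM in each library (horizontal log axis, TPM + 0.01) for 43 of the 44 receptor genes, grouped by family with grey lines between families; orange circles are the 3 TSA libraries and blue squares, drawn just under them, the 3 vehicle libraries. FGFR4 sits near 40 TPM in TSA cells and near 1 TPM in vehicle cells, while MET, DDR1 and KIT sit near 10 TPM in TSA cells and between 30 and 50 TPM or so in vehicle cells.

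**Figure D2:**
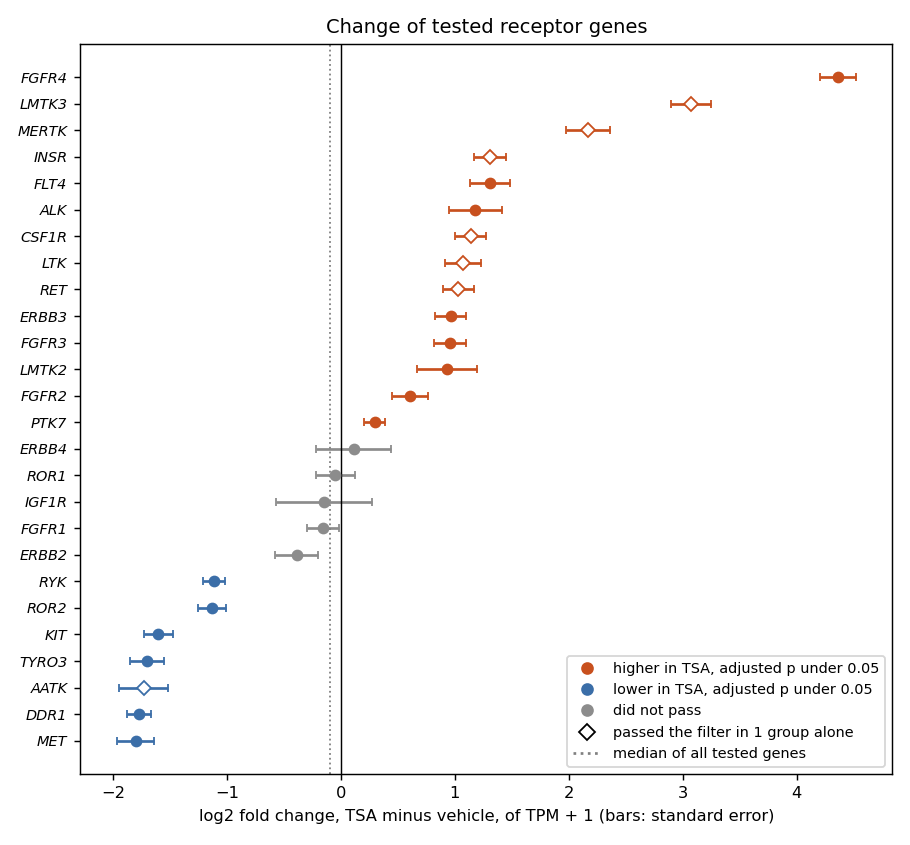
Log2 fold change, TSA minus vehicle, on the log2(TPM + 1) scale for 26 of the 27 tested receptor genes (points) with the limma standard error (bars); orange, blue and grey mark higher, lower and not called, open diamonds mark genes that passed the filter in 1 group alone, and the dotted line is the median of all tested genes. FGFR4 stands at 4.36 and MET at -1.80.

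The fibroblast growth factor receptors FGFR1 to FGFR4 bind FGFs together with heparan sulfate or a klotho protein. FGFR4 had 39.7, 43.9 and 48.9 TPM in TSA cells, against 1.27, 0.890 and 1.43 TPM in vehicle cells. Every TSA library was far above every vehicle library, with a mean of 44.1 ± 4.64 TPM in TSA cells and 1.2 ± 0.279 TPM in vehicle cells (SD, n = 3 each), a 36.8-fold ratio of means. Its log2 fold change was 4.36 ± 0.15 (SE; limma adjusted p = 6.63e-06). FGFR3 had 10.4, 9.82 and 12.5 TPM in TSA cells and 5.26, 5.04 and 5.0 TPM in vehicle cells, and FGFR2 had 9.42, 7.18 and 7.71 TPM in TSA cells and 4.90, 4.45 and 5.54 TPM in vehicle cells. Both rose without overlap, FGFR3 by 0.96 ± 0.14 (limma adjusted p = 0.000997) and FGFR2 by 0.61 ± 0.16 (limma adjusted p = 0.0132) on the log2 scale. The FGFR2 call was lost when replicate 1 of both groups was left out (limma adjusted p = 0.0511, range over all alternatives 0.00123 to 0.0511). FGFR1 had 48.3, 35.7 and 38.3 TPM in TSA cells and 51.3, 41.7 and 43.0 TPM in vehicle cells. These ranges overlap, and the log2 difference of -0.16 ± 0.14 did not pass (limma adjusted p = 0.383). FGFR4, at the lowest level of the 4 in vehicle cells, was thus level with FGFR1 in TSA cells, their ranges overlapping.

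Of 6 tested genes of secreted FGFs, 4 were lower (FGF2, FGF5, FGF9 and FGF18), FGF19 was higher and FGF20 did not pass. FGF5 had 4.98, 3.98 and 3.93 TPM in TSA cells, against 20.1, 16.7 and 20.9 TPM in vehicle cells. FGF2, FGF9 and FGF18 had log2 fold changes of -1.54, -1.29 and -0.82, and of the FGF homologues that stay inside the cell FGF13 fell by 1.94 and FGF11 rose by 0.95. FGF19, known as the gut hormone that signals to liver through FGFR4 and beta-klotho, was low but higher in TSA cells, with 2.81, 1.64 and 2.42 TPM against 1.04, 1.56 and 0.923 TPM in vehicle cells (log2 fold change 0.59 ± 0.20, limma adjusted p = 0.0399). Under the filter, FGF22 had 1.63, 0.508 and 0.937 TPM and FGF23 had 0.593, 0.844 and 0.983 TPM in TSA cells, and both were listed at 0 in all vehicle libraries. KLB, the gene of beta-klotho, was listed at 0 in 5 libraries and at 0.0226 TPM in TSA library 1. KL, the klotho that FGF23 uses, fell to 0.390, 0.405 and 0.426 TPM in TSA cells, against 3.81, 2.94 and 4.45 TPM in vehicle cells, and FGFRL1, an FGF receptor without a kinase domain, rose to 25.6, 26.6 and 32.7 TPM, against 2.17, 2.69 and 2.69 TPM in vehicle cells.

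The lemur tail kinases LMTK2, LMTK3 and AATK are membrane-anchored kinases known from endosome traffic and from neurons, and they split. LMTK3 had 9.33, 9.45 and 12.8 TPM in TSA cells, against 0.464, 0.308 and 0.301 TPM in vehicle cells. The groups stand far apart, with a 29.4-fold ratio of means and a log2 fold change of 3.07 ± 0.17 (limma adjusted p = 2.08e-05). LMTK2 had 83.1, 48.2 and 49.5 TPM in TSA cells, against 33.8, 22.5 and 35.7 TPM in vehicle cells. TSA library 1, which also has the largest mitochondrial share, is the high one and vehicle library 2, with the smallest share, the low one, without overlap between groups, and the log2 fold change was 0.94 ± 0.26 (limma adjusted p = 0.0189). Without vehicle replicate 2 it was 0.73 and missed the threshold (limma adjusted p = 0.0507, range over all alternatives 4.5e-05 to 0.0507). AATK went down, with 0.619, 0.431 and 0.431 TPM in TSA cells and 3.44, 3.15 and 5.56 TPM in vehicle cells (log2 fold change -1.73 ± 0.21, limma adjusted p = 0.000462). STYK1, a kinase with a membrane anchor and almost no extracellular part, was under the filter at 0.643, 0.627 and 0.577 TPM in TSA cells and was listed at 0 in all 3 vehicle libraries.

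MET, the receptor of hepatocyte growth factor, had 15.4, 12.1 and 10.8 TPM in TSA cells, against 50.0, 39.7 and 50.4 TPM in vehicle cells. All TSA libraries were below all vehicle libraries, with a mean of 12.7 ± 2.4 TPM in TSA cells and 46.7 ± 6.02 TPM in vehicle cells (SD, n = 3 each; log2 fold change -1.80 ± 0.16, limma adjusted p = 0.000126). Its ligand gene HGF did not exceed 0.0537 TPM in any library. The related receptor MST1R was under the filter, at 1.63, 0.562 and 0.538 TPM in TSA cells and 0.714, 0.607 and 0.458 TPM in vehicle cells, which overlap. DDR1, a receptor for collagen, had 12.2, 10.0 and 10.4 TPM in TSA cells, against 39.2, 38.2 and 40.9 TPM in vehicle cells. The vehicle libraries were close together and far above the TSA libraries (log2 fold change -1.77 ± 0.11, limma adjusted p = 2.84e-05). The collagen gene COL1A1 moved the opposite way, to 6.42, 4.51 and 5.39 TPM in TSA cells, against 0.412, 0.211 and 0.906 TPM in vehicle cells. DDR2, the other collagen receptor, stayed at 0.263 TPM or less in every library.

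Promoter windows of the 2 receptor genes with the largest increases and the 2 with the largest decreases on the log2(TPM + 1) scale are shown to set side by side the sequence around their start sites. Each is the RefSeq window of GRCh38.p14 from 250 bases before to 50 bases after the annotated start, written 5′ to 3′ on the gene's strand. Capitals mark GGGCGG (GC box, the letters bound by SP1-type factors), CCAAT and TATAAA. Both strands were searched, and all matches in these 4 windows lie on the printed strand. FGFR4 lies at chr5:177086665-177086964 on the plus strand, LMTK3 at chr19:48511786-48512085 on the minus strand, MET at chr7:116671946-116672245 on the plus strand and DDR1 at chr6:30880720-30881019 on the plus strand.
FGFR4: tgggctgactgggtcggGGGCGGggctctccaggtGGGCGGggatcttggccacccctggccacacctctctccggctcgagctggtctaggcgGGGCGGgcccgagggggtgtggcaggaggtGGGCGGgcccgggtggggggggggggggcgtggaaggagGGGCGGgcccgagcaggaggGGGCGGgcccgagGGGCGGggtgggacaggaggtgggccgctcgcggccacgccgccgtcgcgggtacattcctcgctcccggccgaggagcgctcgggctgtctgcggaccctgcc
LMTK3: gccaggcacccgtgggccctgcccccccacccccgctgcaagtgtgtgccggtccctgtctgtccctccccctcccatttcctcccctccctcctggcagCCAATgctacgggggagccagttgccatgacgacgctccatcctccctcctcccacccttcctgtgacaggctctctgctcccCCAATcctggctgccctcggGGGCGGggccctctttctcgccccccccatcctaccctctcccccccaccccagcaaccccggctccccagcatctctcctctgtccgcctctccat
MET: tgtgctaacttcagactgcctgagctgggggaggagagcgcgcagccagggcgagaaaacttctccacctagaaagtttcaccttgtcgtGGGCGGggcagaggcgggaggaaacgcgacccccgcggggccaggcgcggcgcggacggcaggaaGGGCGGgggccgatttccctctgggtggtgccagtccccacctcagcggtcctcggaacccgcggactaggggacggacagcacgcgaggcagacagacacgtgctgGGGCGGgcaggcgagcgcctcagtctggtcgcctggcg
DDR1: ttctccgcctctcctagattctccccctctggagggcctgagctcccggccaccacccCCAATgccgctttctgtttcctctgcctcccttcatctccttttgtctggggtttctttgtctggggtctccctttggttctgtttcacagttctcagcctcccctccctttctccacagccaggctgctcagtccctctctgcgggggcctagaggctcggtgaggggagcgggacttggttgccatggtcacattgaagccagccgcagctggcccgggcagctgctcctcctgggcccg
The FGFR4 window holds 7 GC boxes and 30 CpG dinucleotides, and the LMTK3 window 1 GC box, 2 CCAAT boxes and 11 CpG. The MET window holds 3 GC boxes and 30 CpG, and the DDR1 window no GC box, 1 CCAAT box and 9 CpG. The motifs thus did not sort with the direction of change in these 4 windows. RefSeq gave a window for 38 of the 44 receptor genes (those without one include ERBB3, FGFR1, FLT4, INSRR and STYK1), and 26 of the 38 hold a GC box, against 45% of all 35116 windows. A GC box was in 11 of 12 windows of genes higher in TSA cells, in 5 of 7 of genes lower, in 2 of 4 of genes tested but not called and in 8 of 15 of genes not tested. The median CpG count was 31 for genes higher, 38 for genes lower, 26.5 for genes not called and 10 for genes not tested, against 14 over all windows. CCAAT was in 13 of the 38 windows, against 34.6% of all, and TATAAA in 3, against 11.5%.

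KIT, the receptor of stem cell factor, had 12.7, 11.0 and 10.4 TPM in TSA cells, against 38.9, 32.2 and 38.1 TPM in vehicle cells, without overlap (log2 fold change -1.60 ± 0.13, limma adjusted p = 7.25e-05). KITLG, the gene of its ligand, had 50.0, 44.9 and 38.9 TPM in TSA cells, against 135, 129 and 150 TPM in vehicle cells. Receptor and ligand were thus lower by almost the same amount, KITLG with a log2 fold change of -1.61 ± 0.12 (limma adjusted p = 5.46e-05). CSF1R, the macrophage growth factor receptor of the same family, was all but unread in vehicle cells and rose: it had 1.28, 1.04 and 1.34 TPM in TSA cells, and was listed at 0, 0 and 0.0274 TPM in vehicle cells. Its log2 fold change was 1.14 ± 0.14 (limma adjusted p = 0.000416), resting on at least 137 reads in TSA cells and 1 in vehicle cells over 3 libraries each, and its ligand gene CSF1 was lower (-1.16). PDGFRA, PDGFRB and FLT3 were under the filter. PDGFRA had 0.693, 0.482 and 0.522 TPM in TSA cells, against 0.123, 0.147 and 0.189 TPM in vehicle cells, and PDGFRB had 0.154, 0.188 and 0.139 TPM in TSA cells and was listed at 0 in vehicle cells. Of their ligand genes PDGFA, PDGFB and PDGFD were lower and PDGFC did not pass. PDGFRA, KIT and KDR follow each other on chromosome 4, and CSF1R and PDGFRB on chromosome 5, with no other protein-coding gene between them in RefSeq. Of the neighbours on chromosome 4, KIT went down, PDGFRA was higher in every TSA library at a low level and KDR was at 0.0880 TPM or less.

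The receptors that bind WNT proteins, ROR1, ROR2, RYK and PTK7, did not move as a group. ROR2 had 7.41, 9.24 and 7.96 TPM in TSA cells, against 18.2, 19.9 and 19.2 TPM in vehicle cells, and RYK had 13.6, 14.7 and 14.5 TPM in TSA cells, against 29.6, 32.9 and 33.2 TPM in vehicle cells. Both fell without overlap, with log2 fold changes of -1.13 ± 0.12 (limma adjusted p = 0.000277) for ROR2 and -1.11 ± 0.10 (limma adjusted p = 0.000119) for RYK. ROR1 had 6.42, 4.88 and 4.67 TPM in TSA cells and 6.20, 4.70 and 5.66 TPM in vehicle cells, which overlap, and its log2 difference of -0.05 ± 0.17 changed sign with the scaling. PTK7, the highest receptor gene of vehicle cells, had 77.8, 77.1 and 82.2 TPM in TSA cells, against 61.6, 70.1 and 61.0 TPM in vehicle cells. These groups do not overlap, but the increase was small (log2 fold change 0.30 ± 0.09, limma adjusted p = 0.0253) and its adjusted p ran between 0.00588 and 0.111 over the alternatives. It missed the threshold in the authors' deposited table (FDR = 0.111), without replicate 2 or 3 of TSA (limma adjusted p = 0.0583 and 0.0931) and without replicate 1 or 3 of vehicle (limma adjusted p = 0.0853 and 0.0895). MUSK, the receptor kinase of the neuromuscular junction, was the only untested member lower in every TSA library, with 0.0331, 0 and 0.0340 TPM in TSA cells and 0.144, 0.191 and 0.0679 TPM in vehicle cells. AGRN, the gene of agrin, which acts on MUSK through LRP4, was higher (log2 fold change 1.78, limma adjusted p = 0.00062), and LRP4 did not pass.

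Of the ERBB receptors, which bind the EGF and neuregulin families, only ERBB3 passed. ERBB3, the neuregulin receptor with little kinase activity, had 10.5, 8.54 and 9.16 TPM in TSA cells, against 4.36, 4.05 and 4.59 TPM in vehicle cells. Its groups do not overlap (log2 fold change 0.96 ± 0.14, limma adjusted p = 0.00097). ERBB4 had 15.7, 7.53 and 7.61 TPM in TSA cells and 11.9, 6.33 and 9.31 TPM in vehicle cells, with the number 1 library highest in each group. The groups overlap, and its log2 difference of 0.11 ± 0.33 did not pass (limma adjusted p = 0.788). ERBB2, the partner receptor with no known ligand, was low, with 1.07, 0.598 and 0.465 TPM in TSA cells and 0.957, 1.31 and 1.40 TPM in vehicle cells (log2 difference -0.39 ± 0.19, limma adjusted p = 0.114). TSA library 1 accounts for the overlap, and without it the difference was -0.53 and passed (limma adjusted p = 0.0326, range over all alternatives 0.0326 to 0.287). EGFR was nearly unread, at 0.0545 TPM or less in TSA cells and 0.0218 TPM or less in vehicle cells. HBEGF and TGFA, genes of EGFR-type ligands, rose, whereas EGF and EREG were under the filter and overlapped. HBEGF had 24.2, 33.5 and 31.3 TPM in TSA cells, against 2.13, 3.27 and 2.71 TPM in vehicle cells. TGFA had 1.86, 1.59 and 1.94 TPM in TSA cells and at most 0.0962 TPM in vehicle cells. The log2 fold change of HBEGF was 3.05 ± 0.18 (limma adjusted p = 2.63e-05).

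In the insulin receptor family INSR, the insulin receptor itself, had 1.74, 1.48 and 1.32 TPM in TSA cells, against 0.0286, 0.0152 and 0 TPM in vehicle cells. It was all but unread in vehicle cells, with at least 345 reads in TSA cells and 3 in vehicle cells over 3 libraries each (log2 fold change 1.31 ± 0.14, limma adjusted p = 0.000246). IGF1R, the receptor of insulin-like growth factors, had 9.74, 3.61 and 3.31 TPM in TSA cells and 8.26, 3.58 and 5.84 TPM in vehicle cells. The spread within each group is larger than the difference, again with the number 1 library highest in each, and the test did not pass (-0.15 ± 0.42, limma adjusted p = 0.781). Its ligand gene IGF2 did not pass, and IGF2R, which takes up IGF2 without a kinase, was higher with 84.6, 32.4 and 31.9 TPM in TSA cells, against 21.2, 12.2 and 17.0 TPM in vehicle cells. INSRR, a sensor of alkaline pH, was under the filter. The sources used here do not give the strand setting used in counting. Reads of genes that overlap on opposite strands in GENCODE 29 may therefore not have been told apart, which concerns AATK with BAIAP2 and PVALEF, ERBB2 with MIEN1 and PGAP3, and FGFR1 with LETM2. AXL, EGFR and MST1R also overlap a gene on the opposite strand. LMTK3, ERBB3, PDGFRA, ROS1 and DDR1 share exon sequence with another annotated gene on their own strand, for DDR1 the microRNA gene MIR4640. Part of their reads may belong to it.

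RET, ALK and LTK, receptors known from the nervous system, all rose. RET, the GDNF-family receptor, had 2.09, 2.23 and 2.14 TPM in TSA cells, against 0.517, 0.669 and 0.445 TPM in vehicle cells. All TSA libraries were above the vehicle libraries (log2 fold change 1.03 ± 0.14, limma adjusted p = 0.000696). ALK had 7.92, 4.60 and 5.01 TPM in TSA cells, against 2.44, 1.48 and 2.03 TPM in vehicle cells, and its relative LTK had 1.77, 1.19 and 1.21 TPM in TSA cells, against 0.0858, 0.182 and 0.121 TPM in vehicle cells. Neither overlaps between groups, with log2 fold changes of 1.18 ± 0.23 for ALK (limma adjusted p = 0.00422) and 1.07 ± 0.16 for LTK (limma adjusted p = 0.00103). NTRK2 and NTRK3 were at 0.300 TPM or less in every library and overlapped.

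Around these receptors and the TRK family, partner genes moved in both directions. NGFR, the p75 co-receptor that binds neurotrophins beside the TRK receptors, had 68.3, 85.2 and 85.9 TPM in TSA cells, against 1.66, 1.65 and 1.80 TPM in vehicle cells. The groups stand far apart, with a log2 fold change of 4.89 ± 0.13 (limma adjusted p = 5.3e-06). NTF3, the neurotrophin that chiefly binds TRKC, had 2.69, 3.63 and 3.53 TPM in TSA cells, against 17.2, 17.0 and 12.3 TPM in vehicle cells. FAM150B, a gene of the ALK and LTK ligands, had 0.0628, 0.245 and 0.258 TPM in TSA cells, against 2.94, 3.92 and 3.48 TPM in vehicle cells (log2 fold change -1.90 ± 0.16). Pleiotrophin (PTN) and midkine (MDK), growth factors reported to act on ALK among other receptors, fell by 1.62 and 1.52 on the log2 scale. For RET, the ligand gene NRTN rose (log2 fold change 0.81, limma adjusted p = 0.0105), while GFRA1, the co-receptor through which GDNF reaches RET, had 0.826, 0.505 and 0.560 TPM in TSA cells, against 4.19, 3.25 and 6.13 TPM in vehicle cells.

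TYRO3, AXL and MERTK form the TAM family, which binds GAS6 and protein S on dying cells. TYRO3 had 2.63, 2.82 and 2.32 TPM in TSA cells, against 9.43, 11.8 and 10.9 TPM in vehicle cells. MERTK had 5.91, 3.93 and 3.94 TPM in TSA cells, against 0.281, 0.0747 and 0.332 TPM in vehicle cells. The order of these relatives thus differed between the groups, MERTK above TYRO3 in every TSA library and TYRO3 above MERTK in every vehicle library. The log2 fold changes were -1.70 ± 0.15 for TYRO3 (limma adjusted p = 0.000104) and 2.17 ± 0.20 for MERTK (limma adjusted p = 0.000123). AXL had 0.160, 0.104 and 0.0822 TPM in TSA cells and was listed at 0 in vehicle cells. GAS6 had 18.2, 16.0 and 18.6 TPM in TSA cells, against 23.4, 22.4 and 22.1 TPM in vehicle cells, a small decrease (log2 fold change -0.35 ± 0.10, limma adjusted p = 0.0227). TYRO3 has LTK close by on chromosome 15, with RPAP1 the only protein-coding gene between them, and the neighbours went in opposite directions.

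FLT4, the lymphatic VEGF receptor, was the only one of the 5 vascular receptors above the filter. It had 7.59, 5.14 and 6.46 TPM in TSA cells, against 2.25, 1.96 and 1.71 TPM in vehicle cells, without overlap (log2 fold change 1.31 ± 0.18, limma adjusted p = 0.000758). VEGFC, its main ligand, was lower (-1.0). Of the other VEGF family genes VEGFB was lower (-0.84, limma adjusted p = 0.0073), whereas VEGFA (0.89, limma adjusted p = 0.0271) and PGF (1.51, limma adjusted p = 0.00282) were higher. The co-receptor NRP1 fell to 1.54, 1.15 and 1.36 TPM in TSA cells, against 12.1, 11.3 and 13.7 TPM in vehicle cells. FLT1, KDR, TEK and TIE1 stayed at 0.116 TPM or less in every library, while ANGPT2, a ligand of TEK, had 0.142, 0.119 and 0.125 TPM in TSA cells and 5.96, 5.07 and 5.43 TPM in vehicle cells.

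All 17 untested receptor genes had 1.63 TPM or less in every library. In 9 of them the TSA libraries were all above the vehicle libraries, beside 23.4% of all genes in the table. In 1 they were all below, beside 24.0%, and 7 overlapped. The shares among other genes under the filter were not computed. By the authors' deposited table, FDR values placed 9 of the 17 as higher at the 0.05 level, beside 21.8% of all genes in the table. By the same values 1 was lower, beside 6202 of all 31814 genes, and 7 did not pass. PDGFRB, KDR, TIE1, AXL, ROS1 and STYK1 were listed at 0 in all 3 vehicle libraries. The lower bounds of their reads over the 3 TSA libraries lay between 3 and 25. Markers of cell types that carry such receptors moved too. The 5 endothelial markers summed to 6.04, 7.14 and 7.49 TPM in TSA cells and 1.52, 1.07 and 1.06 TPM in vehicle cells. ESAM made up most of the TSA sums. CLDN5 had 0.352 to 0.494 TPM in TSA cells and 0.0873 TPM or less in vehicle cells, and CDH5 had 0.113 TPM or less in all. ERG was higher in every TSA library, at 0.235 to 0.413 TPM, against 0.159 to 0.187 TPM in vehicle cells. VWF went the other way, with 0.0854 to 0.162 TPM in TSA cells and 0.3985 to 0.558 TPM in vehicle cells. The 5 fibroblast markers summed to 7.05, 5.15 and 5.74 TPM in TSA cells and 0.412, 0.211 and 0.906 TPM in vehicle cells, most of it COL1A1, with DCN and COL3A1 at 0.0197 TPM or less, while COL1A2 and LUM had up to 0.309 and 0.401 TPM in TSA cells and were listed at 0 in vehicle cells. The 4 blood cell markers in the table summed to 10.1, 7.59 and 7.36 TPM in TSA cells and 6.43, 5.65 and 4.97 TPM in vehicle cells. CD14 had 3.67 to 4.745 TPM in TSA cells and 3.52 to 4.47 TPM in vehicle cells and did not pass. CD68 was higher in TSA cells (log2 fold change 1.20, limma adjusted p = 0.00484), and CD3E had 0.298 TPM or less. PTPRC, which marks all white blood cells, was lower in TSA cells at 0.0647 TPM or less, against 0.449 to 0.510 TPM in vehicle cells. The markers of each list thus moved unevenly, and their part in the receptor values was not tested.

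Summed over the 44 genes, receptor transcripts came to 423, 342 and 362 TPM in TSA libraries and 387, 349 and 383 TPM in vehicle libraries, so the totals overlap while the makeup differed. FGFR4, LMTK2 and LMTK3 made up 31.2, 29.6 and 30.7% of the sum in TSA libraries, against 9.19, 6.79 and 9.76% in vehicle libraries. MET, DDR1, KIT and RYK made up 12.7, 13.9 and 12.7% in TSA libraries, against 40.8, 41.0 and 42.4% in vehicle libraries. These genes were grouped after their values were seen, so the shares are a description. By mean TPM, TSA cells had PTK7 (79.0), LMTK2 (60.3), FGFR4 (44.1) and FGFR1 (40.8) at the top, ranges of neighbours overlapping, then a gap to RYK (14.3), MET (12.7) and KIT (11.4), which again overlap. Vehicle cells had PTK7 (64.2) alone at the top, then MET (46.7), FGFR1 (45.3), DDR1 (39.5), KIT (36.4), RYK (31.9) and LMTK2 (30.6), and below these ROR2 (19.1). Neighbours from MET to LMTK2 overlap except that FGFR1 was just above DDR1, while MET and DDR1 overlap. There were 25 receptor genes at 1 TPM or more in all 3 TSA libraries and 18 in all 3 vehicle libraries, whereas 7 genes in TSA libraries and 8 in vehicle libraries were at 10 TPM or more.

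**Figure D3:**
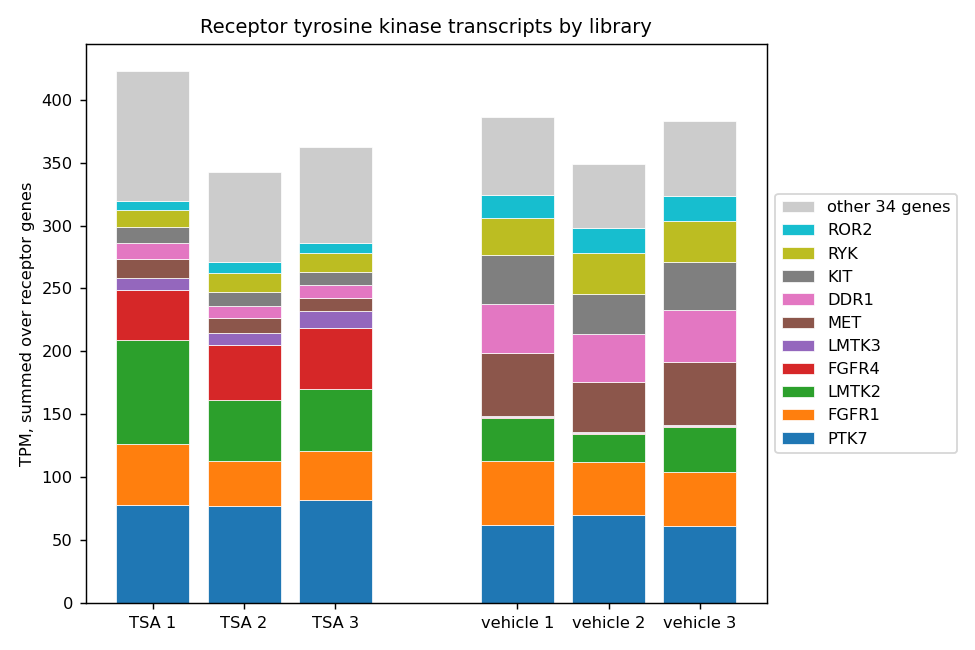
TPM summed over the 44 receptor genes (vertical axis) in each of the 3 TSA libraries (left) and 3 vehicle libraries (right), with 10 genes in colour and the others in grey. The bars have similar heights, 342 to 423 TPM in TSA cells and 349 to 387 TPM in vehicle cells, while FGFR4 (red) is visible in TSA bars only and MET, DDR1, KIT and RYK take up more of the vehicle bars.

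Beyond the receptors, 62 genes of their ligands were in the table, and of the 32 tested 8 were higher and 18 lower, with a median log2 fold change of -0.68. This split depended on the filter: without one 13 were higher and 18 lower, beside 5826 and 6170 over all genes. The authors' deposited table had 18 higher and 19 lower at the 0.05 level, beside 6925 and 6202 of its 31814 genes. Over all 62, the TSA libraries were all above the vehicle libraries for 18 genes, beside 23.4% of all genes in the table. They were all below for 21, beside 24.0%. Of 9 tested co-receptor genes 5 were higher (NGFR, FGFRL1, IGF2R, NRP2 and SORT1) and 3 lower (NRP1, GFRA1 and KL), with a median of 0.36. The 5 higher became 3 without vehicle replicate 2 or without vehicle replicate 3.

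**Figure D4:**
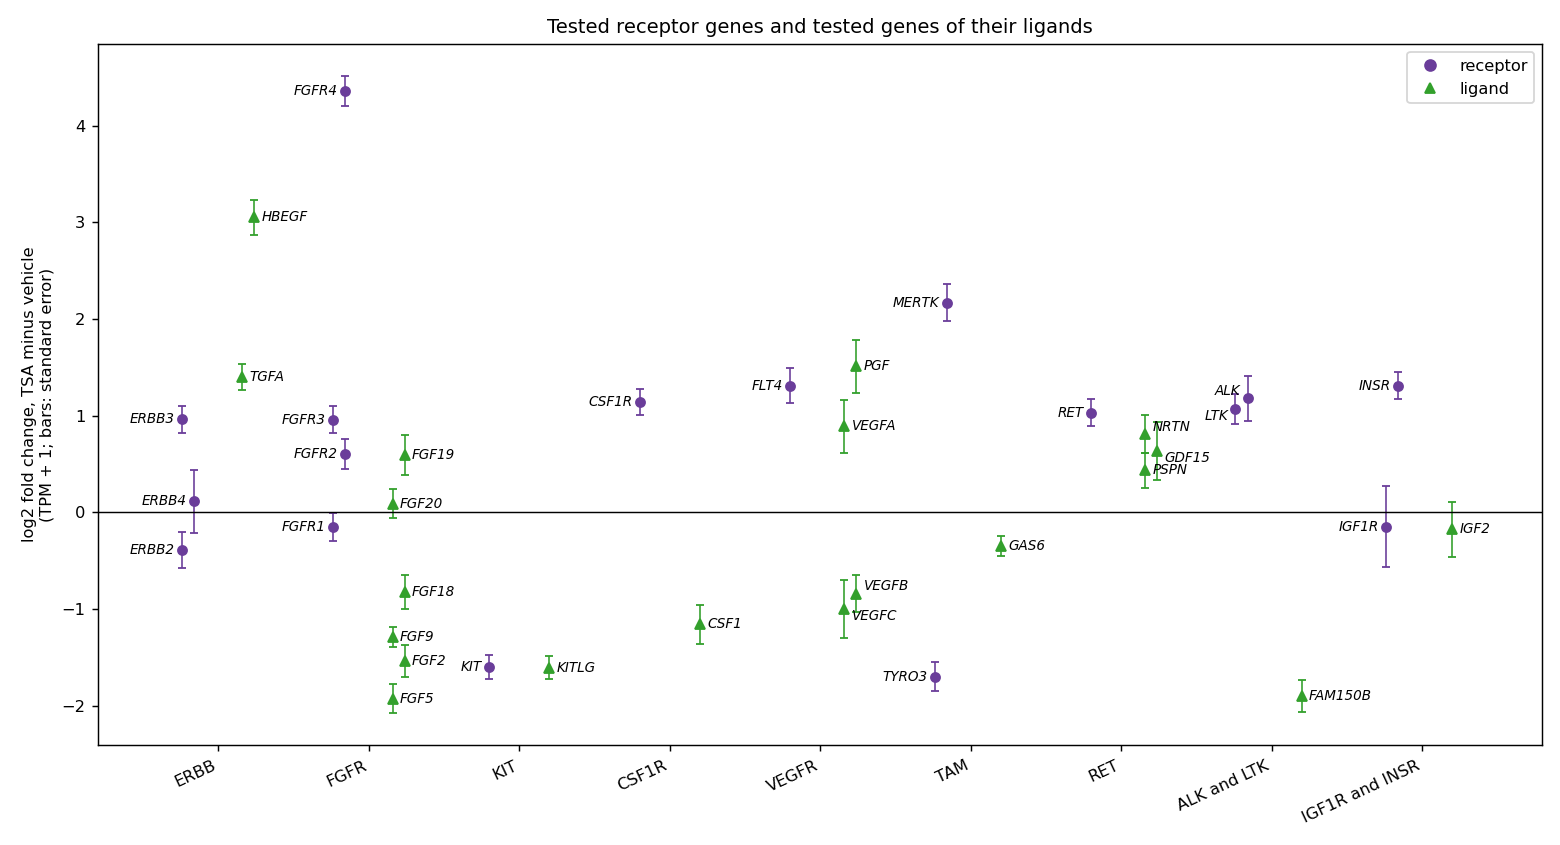
Log2 fold change, TSA minus vehicle, on the log2(TPM + 1) scale (vertical axis, bars are limma standard errors) of tested receptor genes (purple circles) and of tested genes of their ligands (green triangles), by family along the horizontal axis. KIT and KITLG lie together near -1.6, whereas ALK, LTK, CSF1R and FGFR4 lie above 0 with FAM150B, CSF1 and most FGF genes below it.

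The cytoplasmic parts of the pathway changed in both directions. Of 26 tested adaptor genes 9 were higher and 11 lower (median -0.31). GRB2, the link from receptors to RAS, had 287, 329 and 323 TPM in TSA cells, against 134, 144 and 139 TPM in vehicle cells. DOK6, an adaptor known to bind RET, had 2.36, 2.53 and 2.27 TPM in TSA cells, against 33.6, 23.1 and 36.5 TPM in vehicle cells, a fall of 3.22 on the log2 scale (limma adjusted p = 2.46e-05). SOS2 (-1.80), a RAS activator, and GAB2 (-1.64) were also lower, and PLCG2 (2.62) and DOK1 (1.92) higher. Of 23 tested genes of the RAS-MAPK and PI3K-AKT relays 8 were higher and 10 lower (median -0.09). This leaves out PIK3R2, whose symbol has more than 1 entry, and with its entries counted 10 were higher and 10 lower. The lower ones were 6 without TSA replicate 3. PIK3CA (-1.63), a catalytic PI3K subunit, was lower, whereas PIK3CD (2.54), another such subunit best known from white blood cells, and the small GTPase RRAS (3.05) were higher. Of 24 tested inhibitors of receptor signalling 5 were higher and 12 lower (median -0.45). Among these, the receptor phosphatase PTPRJ (-1.72), the RAS-inactivating NF1 (-1.70) and RASA2 (-1.35) and the receptor-binding LRIG3 (-1.55) were lower, and the adaptor SH2B3 (1.57) was higher. The 5 lists and the receptors were read beside 28.0% higher and 34.2% lower over all tested genes.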

How the data were processed

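Per the labels' protocols, polyadenylated RNA was made into stranded libraries and sequenced by Illumina chemistry. Build hg19 and, without roles, the tools STAR 2.5.3a, featureCounts, edgeR, Picard 1.127 and FastQC 0.11.2 are listed per the submitters' processing notes; GENCODE 19 comes from the name of the deposited table. The authors deposited TPM values (31814 genes, 6 libraries), which the scripts read as deposited. They also deposited a table of their own test, with log2 fold changes, log2 CPM levels, likelihood ratio scores, p-values and FDR, from which only log2 fold changes and FDR are given, each credited to the authors. Whole-read steps in the TPM values were recovered for 100% of the 27644 genes above 0 in 2 or more libraries (relative tolerance 1e-09), which gives depth as a lower bound.

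Receptor genes, gene lists and ligand pairs were chosen with earlier results of these data known. The test was limma 3.58.1 (R 4.3.3, trend, two-sided) on log2(TPM + 1) of genes that reached 1 TPM in 3 or more libraries. All 6 libraries entered 1 fit, p-values were adjusted by Benjamini-Hochberg over every gene tested, and the threshold was 0.05. The test was tested on simulated data. Far fewer genes changed in that simulation than were called here, and it held no replicate effect, so it cannot show the error rate in these data. A few genes are counted but not reported by name here. Values per library are given for called receptor genes with a mean of at least 5 TPM in either group, and for other members where their family is described. From each pathway list the rule named up to 5 called genes with the largest absolute log2 fold change, a mean of at least 5 TPM in either group and no overlap, and ligands of members named in full; partner genes outside the rule were chosen after their values were seen. Tables and figures were made with Python 3.11.15, pandas 2.3.3 and matplotlib 3.10.9. Promoter windows are from RefSeq (GRCh38.p14). Alternatives covered pseudocounts of 0.1 and 0.5, filters, scaling, limma settings, leaving out libraries, a replicate block, voom on recovered reads, removal of length and GC trends, and the authors' test; a filter on the mean over 6 libraries was added after the data were seen.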

Additional observations from a re-analysis of the deposited data

How the results depend on the processing

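All 7 decreases (MET, DDR1, AATK, TYRO3, KIT, ROR2 and RYK) kept their call under every alternative in which they were tested, and so did 12 of the 15 increases. Among these, AATK passed the filter through its vehicle libraries alone and 7 of the increases through their TSA libraries alone. Those calls could hardly fail, so their being kept says little. PTK7, LMTK2 and FGFR2 lost their calls as given beside them, PTK7 also with limma without trend (adjusted p = 0.0508), without replicate 1 of both groups (0.0826) and after removal of length and GC trends (0.0598). The 15 higher receptor genes became 8 with a filter of 5 TPM, which tests fewer genes, and 23 in the authors' deposited test, which tests all 44. Over all genes 4929 were higher, against 3788 with a filter of 5 TPM and 6925 in the authors' deposited test. Leaving out 1 library gave 14 to 15 higher and 7 to 8 lower receptor genes. ROR1, not called, changed sign to 0.0534 with median-of-ratios scaling, 0.0387 with quantile scaling, 0.075 with voom, 0.219 after removal of length and GC trends and 0.00939 in the authors' deposited table, and ran from -0.169 to 0.0268 with 1 library left out. ERBB4 gave -0.0204 without replicate 1 of both groups, ran from -0.21 to 0.301 with 1 library left out, and was called higher (0.613, adjusted p = 0.0165) after removal of length and GC trends. IGF1R gave 0.137 after that removal and ran from -0.57 to 0.0944 with 1 library left out. The cause of these changes was not tested. Same-numbered TSA and vehicle libraries deviated from their group means with correlations of 0.633, 0.59 and -0.0729 for numbers 1, 2 and 3. Differently numbered libraries gave correlations from -0.645 to 0.381. Numbers 1 and 2 thus deviated alike in both groups, and number 3 did not. The main fit did not pair the libraries by number, and a fit with the replicate block gave 15 higher and 7 lower receptor genes. Depth limits genes with few reads, such as CSF1R and INSR in vehicle cells.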
